A study of Drosophila melanogaster with 2 samples.

Results

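The peaks described here are in the authors' pooled thresholded set, and have no counterpart in the set the authors call conservative. They are called pooled-only peaks, although 779 of them (53.0%) are also in the thresholded set of either replicate. They were chosen by position, as the peaks of the pooled thresholded set on the chromosome arms that overlap no peak of the conservative thresholded set by 1 bp or more. The rule takes 1470 of the 5286 pooled peaks on the arms (27.8%, exact 95% Clopper-Pearson interval 26.6 to 29.0), and the other 3816 overlap a conservative peak. The comparison set was the 4099 conservative peaks on the arms. Of these, 270 overlap no pooled peak. Both sets were thresholded on the irreproducible discovery rate (IDR), a measure of how poorly a peak keeps its rank between peak lists, so signal, IDR and presence in the replicates are given as a description with no test.

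The study mapped chromatin bound by a Sequoia-eGFP fusion, the product of a seq-eGFP transgene, in Drosophila melanogaster. Whole embryos were collected over 0 to 24 h of age, and an anti-GFP antibody was used on their sonicated chromatin. There were 2 biological replicates of 1 group, from separate biological samples, and no other condition. Whole embryos mix all tissues, and the labels do not say what drives the fusion, so a peak cannot be assigned to a cell type.

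Sequoia is a zinc finger protein of the nervous system, known for its part in the growth and branching of axons and dendrites. In a ChIP-seq experiment a peak is a stretch of genome that was recovered more often with the antibody than in the control, and its summit is the point of highest enrichment. A strong site ranks high in every list, whereas a weak one, or one carried mostly by one library, can pass in one comparison of lists and fail in another. Which lists were compared for each set here is not given.

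The summits of 7 pooled-only peaks, with 50 bp either side, are shown because members of replicate 1 and of replicate 2 differed in base composition, as described further on. Each was taken from the RefSeq genome of Release 6 (the build dm6 of the files), plus strand, in lower case. Capitals mark every match, on either strand, to one of the 12 short motifs counted further on. The first pair are the strongest members outside promoters, both in an intron and both in the set of replicate 1 only, at chr3L:15624279-15624379 and chr3R:21376375-21376475.
comm3 intron: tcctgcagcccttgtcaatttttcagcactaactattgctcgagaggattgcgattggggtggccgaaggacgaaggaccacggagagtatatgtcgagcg
mod(mdg4) intron: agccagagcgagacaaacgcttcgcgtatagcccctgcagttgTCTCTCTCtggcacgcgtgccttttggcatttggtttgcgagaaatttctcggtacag
The next pair are the strongest promoter members in the set of replicate 2 only, at chr3R:5736506-5736606 and chr3L:7329030-7329130.
CG1236 promoter: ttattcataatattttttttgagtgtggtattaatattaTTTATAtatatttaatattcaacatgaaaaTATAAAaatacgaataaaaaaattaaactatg
mus312 promoter: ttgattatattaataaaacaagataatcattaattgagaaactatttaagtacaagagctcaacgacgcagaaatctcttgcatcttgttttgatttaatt
The next pair are strong intronic members in the set of neither replicate, at chr3R:23157207-23157307 and chr2L:9205176-9205276.
unk intron: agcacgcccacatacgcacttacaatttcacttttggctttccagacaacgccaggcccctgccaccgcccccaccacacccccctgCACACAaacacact
tai intron: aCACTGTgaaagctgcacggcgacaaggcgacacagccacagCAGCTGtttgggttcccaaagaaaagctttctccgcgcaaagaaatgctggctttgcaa
The last is the strongest member in the sets of both replicates, at chr2L:4371798-4371898.
Traf4 promoter: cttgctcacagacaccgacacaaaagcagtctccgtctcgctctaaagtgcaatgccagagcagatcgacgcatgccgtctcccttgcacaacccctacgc

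Pooled-only peaks were weaker than conservative peaks. The authors' signal value ranks peaks within a list. Its median was 73.3 at pooled-only peaks (quartiles 66.0 and 82.7, range 2.07 to 234.4) and 117.1 at conservative peaks (quartiles 88.4 and 177.7, up to 1654.8). Because of this gap, each property was also set beside the 1159 conservative peaks of like signal, those between the 10th and 90th percentile of the members' signal (51.9 to 97.6). All 1470 members were kept beside them, also those outside that range. The median signal of the conservative peaks of like signal was 84.0, so part of the gap remained. A signal under 60 was found at 202 members (13.7%) and at 282 conservative peaks (6.88%). Of those 202 members, 119 (58.9%) overlap a stronger peak of the pooled set itself, so that the 2 peaks share sequence. All but 1 of the members (1469) were 390 bp wide, as were 85.5% of conservative peaks.

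The members lay just outside the conservative threshold in many cases and far outside in others. An interval identical to the member's was present in the conservative ranked list for 1434 members and absent for 36. Their IDR there had a median of 0.0340 and reached 0.832, while their median IDR in the pooled ranked list was 0.00511. The IDR lay between 0.01 and 0.02 for 501 (34.9%), between 0.02 and 0.05 for 346 (24.1%), between 0.05 and 0.1 for 144 (10%), between 0.1 and 0.5 for 207 (14.4%) and above 0.5 for 236 (16.5%). Just inside the conservative threshold, 3 peaks had an IDR of 0.00998 to 0.00999 and signals of 79.0, 83.8 and 108.1. Just outside it, the 3 nearest members had an IDR of up to 0.01002 and signals of 73.0 (near lncRNA:CR44737), 107.2 (in Cka) and 81.8 (at lncRNA:CR46228). The 3 members farthest out, each at an IDR of 0.832, lay at Gs1 (signal 7.67), in Ndae1 (29.1) and at RpL36A (21.2).

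Most members were carried more by replicate 1 than by replicate 2. Replicate 1's own thresholded set held 630 members (42.9%, exact interval 40.3 to 45.4) and replicate 2's held 163 (11.1%, 9.53 to 12.8). By comparison they held 73.6% and 59.7% of conservative peaks, and 38% and 18.4% of those of like signal. Split by set, 616 members (41.9%) were in that of replicate 1 only, 149 (10.1%) in that of replicate 2 only, 14 in both and 691 (47.0%) in neither. The lists of ranked peaks reach further down and held almost all members, 98.8% in replicate 1 and 94.0% in replicate 2.

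The signal of a member in each replicate was taken as the highest ranked peak with its summit within 200 bp. Its median was 44.1 in replicate 1 (1428 members listed) and 27.4 in replicate 2 (1346 listed), against 67.7 and 55.6 at conservative peaks. The files state no rescaling between libraries, so the ratio is read against that of conservative peaks. The log2 ratio of replicate 1 to replicate 2 had a median of 0.72 over the 1311 members listed in both, against 0.21 at conservative peaks and 0.23 at those of like signal. It was above 1 at 514 members (39.2%, against 11.0% of conservative peaks and 3.23% of those of like signal) and below -1 at 81 (6.18%, against 1.11% of conservative peaks). No conservative peak had a listed signal under 32.6 in replicate 1 or under 28.0 in replicate 2. Members fell short of that level, or were not listed, in replicate 2 only for 777 (52.9%), in replicate 1 only for 313 (21.3%), in both for 69 (4.69%) and in neither for 311 (21.2%).

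**Figure D1:**
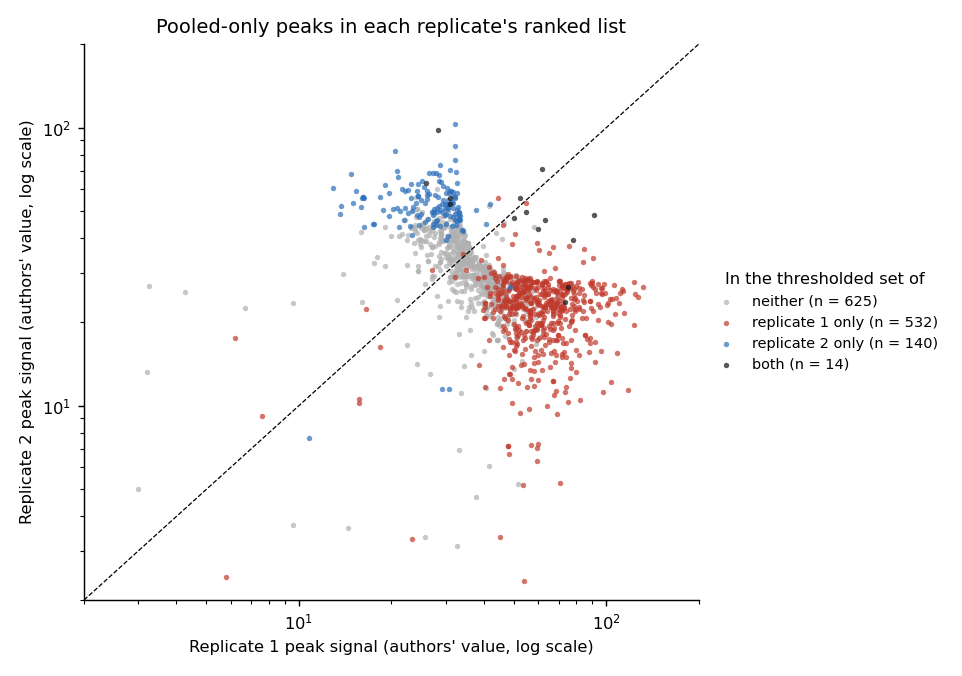
Signal of each pooled-only peak in replicate 1 (horizontal) and replicate 2 (vertical), the authors' value on log axes, for the 1311 members listed in both, with points coloured by the thresholded sets that hold them and equal values on the dashed line. Most points lie below the line, with a median log2 ratio of replicate 1 to replicate 2 of 0.72, and few points are high in both.

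The imbalance was larger in members farther from the conservative threshold. With an IDR of 0.01 to 0.02 there, the median log2 ratio of replicate 1 to replicate 2 was 0.32 and the median signals were 38.3 and 30.9. With an IDR above 0.5 the ratio was 1.68 and the medians were 52.1 and 15.5. In between it was 0.73, 1.12 and 1.48 in order of IDR. The share in replicate 1's own set rose along the same bands from 26.7% to 62.3%, whereas that in replicate 2's set lay between 9.32% and 12.6%. IDR is computed from such ranks, so this order is a description of how the members missed the threshold.

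The strongest members were promoter peaks of replicate 1. Of the 20 with the highest pooled signal, 16 had a summit within 500 bp of a transcription start site (TSS) and 4 lay in introns, and 18 were in the set of replicate 1 only, 1 in that of replicate 2 only and 1 in both. The first had its summit 22 bp inside PIG-Q, a gene of GPI anchor synthesis, and 126 bp upstream of the TSS of U2af50, the large subunit of the splicing factor U2AF (chrX:16359104-16359221). Its signal was 234.4 pooled and 104.5 in replicate 1, with no peak listed in replicate 2. It is also the one member narrower than 390 bp, at 118 bp. The next was at wnd, which encodes a kinase of the axon injury response (chr3L:19635544-19635933), with 185.6 pooled, 123.1 in replicate 1 and none listed in replicate 2. Neither has a replicate 2 value within 200 bp of its summit.

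At insb (chr2R:17476075-17476464, signal 156.8), a nuclear repressor gene of the Notch pathway, the summit lay 2 bp from the TSS, with 131.6 in replicate 1 and 26.7 in replicate 2. At shn, which encodes a zinc finger cofactor of Dpp signalling (chr2R:11173416-11173805, 145.8), the values were 113.7 and 25.9. At shot, the gene of a cytoskeletal linker needed in growing axons (135.6), they were 109.8 and 23.4. These 3 promoters follow one pattern, with replicate 1 high and replicate 2 under the lowest level of any conservative peak.

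Further members of the first 20 were CG6785 (161.1), tow (135.4), lncRNA:CR43706 (134.4), Abcd3, a peroxisomal transporter gene (133.5), lawc (132.6), the spliceosomal RNA gene snRNA:U5:63BC (131.8) and CG8490 (127.9). At CG6785 the signal was 126.7 in replicate 1 and 24.6 in replicate 2, and at snRNA:U5:63BC it was 117.6 and 11.4. CenG1A (134.0), the Polycomb group gene Su(z)2 (128.3) and wnd also have a conservative promoter peak, with signals of 1093.0, 107.7 and 106.9. It need not be at the same TSS. The conservative summit nearest to the member was 25565 bp away at CenG1A, 890 bp at Su(z)2 and 2340 bp at wnd. Traf4, an adaptor protein gene (142.1), was in both replicates' sets, at 90.9 and 48.4. So was CG17834 (123.3), which follows the first 20, at 61.7 and 71.3. CG1236, which shares its promoter with CG2100 (129.8), was the one of replicate 2 only, at 32.1 in replicate 1 and 102.7 in replicate 2.

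The 4 intronic peaks among the 20 strongest lay in comm3, a relative of the axon guidance gene comm (152.7), in mod(mdg4), which encodes a family of chromatin proteins (150.4), in lncRNA:CR32773 (136.4) and in sick (124.7). In comm3 the signal was 123.9 in replicate 1 and 25.3 in replicate 2. In mod(mdg4) it was 123.2 and 27.8. Beyond 2000 bp from any TSS, the next strongest were in introns of CG32066 (124.7) and raw (123.3) and between genes near lncRNA:acal (124.1). The raw peak overlapped both replicates' sets although its signal was 28.3 in replicate 1 and 97.7 in replicate 2.

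At the seq locus itself 2 pooled-only peaks lay upstream of a seq TSS, both in the set of replicate 1 only. The one at the promoter (chr2R:13190008-13190397, summit 117 bp upstream) had a signal of 84.5, with 62.1 in replicate 1 and 18.1 in replicate 2. The one 1549 bp upstream (chr2R:13191440-13191829) had 82.2, with 64.8 and 27.3. It was classed as intronic, so its distance from the seq TSS alone does not assign it to seq. The IDR of the 2 peaks in the conservative ranked list was 0.293 and 0.0124. The histone demethylase gene Kdm4B shares the seq TSS and CG17724 lies within 500 bp, so the promoter peak cannot be assigned to one of them.

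Compared with conservative summits, pooled-only summits were more often in coding exons and less often on the X chromosome, while the promoter and intron shares depended on the replicate that carried the members. Promoters, defined as 500 bp either side of any TSS, held 637 summits (43.3%, exact interval 40.8 to 45.9) against 1828 (44.6%) of the conservative set, introns 543 (36.9% against 37.6%) and intergenic sequence 205 (13.9% against 14.8%). Coding exons held 46 (3.13%, 2.30 to 4.15) against 34 (0.829%, 0.575 to 1.16). The X held 188 (12.8%, 11.1 to 14.6) against 739 (18%, 16.9 to 19.2). By Fisher's exact test (two-sided, p adjusted by Benjamini-Hochberg over 9 shares) the odds ratio was 3.86 for coding exons (adjusted p = 3.43e-08) and 0.667 for the X (adjusted p = 1.17e-05, exact). Peaks are not replicates, so these p-values cover the counting of peaks in this one pair of sets.

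The other 7 shares did not pass, promoters at an odds ratio of 0.95 (adjusted p = 0.596, exact) and summits over 2000 bp from any TSS with 1.16 (34.4% against 31.0%, adjusted p = 0.0566, exact). Odds ratios were 0.971 for introns, 0.936 for intergenic sequence, 1.46 for 5' untranslated regions outside promoters (11 summits), 1.53 for 3' untranslated regions (12) and 0.949 for noncoding exons (16). Against conservative peaks of like signal, with all members kept, the picture changed. The promoter share there was 35.5%, so that members had the higher share (odds ratio 1.39, adjusted p = 2.30e-04, exact), and the intergenic share was 20.4% (0.630, adjusted p = 1.12e-04, exact). The coding exon call ended, at 1.90% of the peaks of like signal and an odds ratio of 1.67 (adjusted p = 0.105, exact), and the X call held at 0.699 (adjusted p = 0.00394, exact). Both calls also ended among the 716 members that passed a stricter pooled IDR limit, at odds ratios of 1.35 and 0.773. The promoter odds ratio was 1.42 among the 630 members in replicate 1's own set and 0.503 among the 163 in replicate 2's. For introns it was 0.743 and 1.52, and for summits over 2000 bp from a TSS 0.777 and 1.55. Coding exons had 1.93 and 1.49, and the X 0.671 and 0.600. Only the members were split here, and the comparison set stayed all 4099 conservative peaks, so these odds ratios are a description. The 691 members in neither set had 37.3% of summits in promoters, also under the 44.6% of conservative peaks. The promoter share over all members thus combines a higher share in replicate 1's set with lower shares among the other members.

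**Figure D2:**
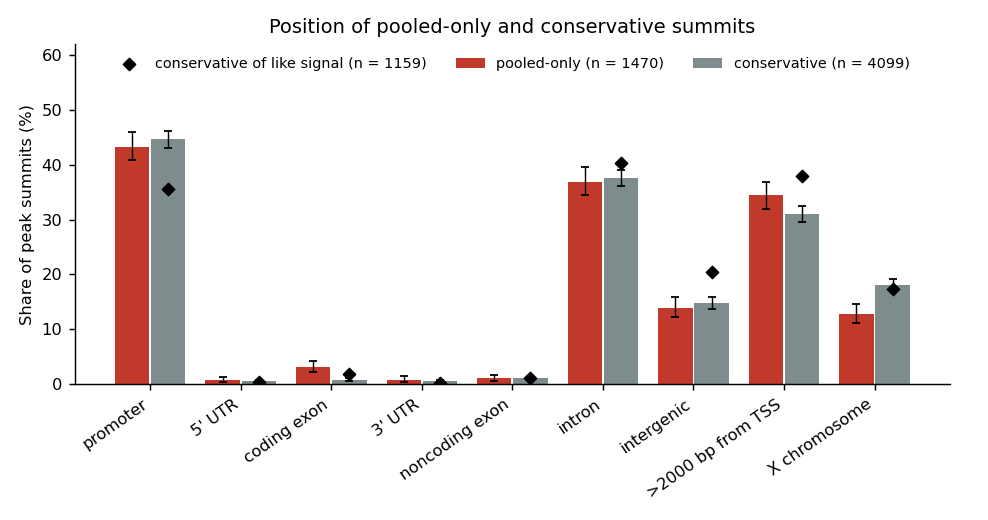
Share of peak summits (%) in each annotation class, over 2000 bp from any TSS and on the X, for 1470 pooled-only peaks, 4099 conservative peaks (bars, with exact 95% intervals) and 1159 conservative peaks of like signal (diamonds). Coding exons hold 3.13% of pooled-only and 0.829% of conservative summits, and the X holds 12.8% and 18%.

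The coding exon members were weak, with a median signal of 67.8 and a median GC content of 55.4%, the same GC content as the 34 conservative summits in coding exons. The strongest lay in not, which encodes a deubiquitinase of the SAGA complex (signal 106.3, with 83.5 in replicate 1 and 20.7 in replicate 2), in CG14883 (93.5, with 66.5 and 23.7), in raskol (83.3, with 55.1 and 26.5) and in cact, the fly inhibitor of NF-kappaB type factors (81.5, with 55.9 and 26.4). These 4 summits were between 503 and 865 bp from the nearest TSS, close to the limit of the promoter class. With promoters taken as 1000 bp either side of a TSS, the coding exon odds ratio against all conservative peaks was 2.72 (adjusted p = 0.00194, Fisher's exact test). Across arms, the density of members was 11.1 per Mb on 2L, 12.2 on 2R, 12.5 on 3L and 11.2 on 3R, and lower on X (7.99, exact Poisson interval 6.88 to 9.21). Chromosome 4 held 5 members (3.71 per Mb, 1.20 to 8.66), 1 of them at ey, whereas no member lay on Y (3 counts there would be 0.818 per Mb).

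Within promoters, pooled-only summits lay closer to the TSS than conservative ones. The median offset was -19 bp (quartiles -128 and 96) over the 637 pooled-only promoter summits and -110 bp (quartiles -201 and 7) over the 1828 conservative ones, with negative values upstream. Upstream of the nearest TSS lay 340 (53.4%, exact interval 49.4 to 57.3) against 1353 (74.0%, 71.9 to 76.0). Within 50 bp of it lay 157 (24.6%, 21.3 to 28.2) against 269 (14.7%, 13.1 to 16.4). Conservative peaks of like signal lay between them, with a median offset of -75 bp and 64.6% upstream. The members in the set of replicate 2 only differed from the rest here, with 35 of 43 promoter summits upstream (81.4%) and a median offset of -113 bp, against 168 of 332 (50.6%) and -6 bp for those in the set of replicate 1 only. These groups by replicate were formed after the values were seen and carry no test.

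**Figure D3:**
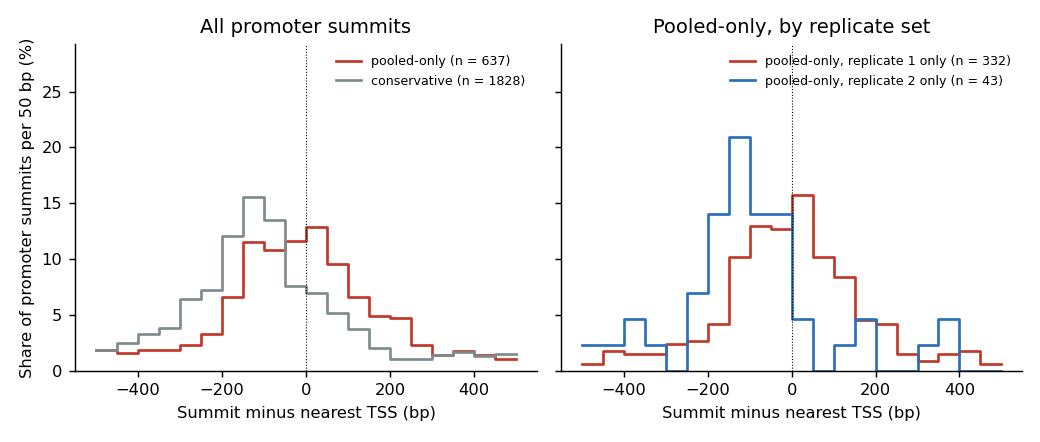
Share of promoter summits (%) per 50 bp of distance from the nearest TSS (negative is upstream), for pooled-only and conservative peaks (left) and for pooled-only peaks in the set of replicate 1 only or replicate 2 only (right). Pooled-only summits centre near the TSS, at a median of -19 bp, and conservative ones upstream at -110 bp, while the 43 of replicate 2 only have a median of -113 bp.

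Members carried by replicate 1 and members carried by replicate 2 also differed in class and base composition. Those of replicate 1 only were in promoters in 53.9% (exact interval 49.9 to 57.9) and in introns in 30%, with a median GC content of 47.5% within 50 bp either side of the summit. Those of replicate 2 only were in promoters in 28.9% (21.7 to 36.8) and in introns in 45.6%, with a median GC content of 33.7%. Of the printed sequences, the promoter pair of replicate 2 only had a GC content of 12.9% (CG1236) and 25.7% (mus312, signal 20.5 in replicate 1 and 82.3 in replicate 2). The intronic pair of replicate 1 only had 52.5% (comm3) and 53.5% (mod(mdg4)). These pairs differ in class, and single members can go the other way. The promoter member of replicate 1 only at PIG-Q had 27.7%. The highest printed values were 58.4% at unk, in neither set, and 56.4% at Traf4, in both. Members in neither set lay between the groups of replicate 1 only and replicate 2 only, with 37.3% in promoters and a median GC content of 43.6%. They held most coding exon members (34 of 46). All members together had a median GC content of 44.6%, against 35.6% for conservative peaks, 38.6% for those of like signal, 43.6% for windows centred on every TSS and 42.6% for consecutive windows along the arms. Conservative peaks differed by replicate in the same direction. Those of replicate 1 only were in promoters in 44.1%, with a median GC content of 43.6%. For those of replicate 2 only the values were 34.7% and 31.7%, and for those in neither set 33.0% and 37.6%.

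The share of members in replicate 2's own set fell with GC content, and that in replicate 1's set rose. Below 30% GC, replicate 1's set held 20.9% of 191 members and replicate 2's 29.3%. Between 30 and 40% the shares were 36.1% and 17.9%, between 40 and 50% they were 46.0% and 6.17%, and between 50 and 60% they were 53.8% and 4.52%. Of the 86 members at 60% or more, replicate 1's set held 51.2% and replicate 2's none (3 counts would be 3.49%, and the exact 95% upper limit is 4.20%). Conservative peaks showed a difference of the same direction in replicate 2, from 75.4% below 30% GC to 40.5% between 50 and 60%, whereas replicate 1 held 74.2% and 74.7% of them. At 60% or more, both shares of the 134 conservative peaks were higher than in the bin before, at 48.5% for replicate 2 and 83.6% for replicate 1. The median log2 ratio of replicate 1 to replicate 2 went from -0.26 below 30% GC to 1.09 between 50 and 60% at members, and from -0.04 to 0.73 at conservative peaks. The order was similar inside promoters (0.34 to 1.25 at members) and outside them (-0.40 to 0.88). GC content thus moved with replicate support in both sets of peaks. Its part in the class, offset and motif differences between the groups by replicate was not tested.

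**Figure D4:**
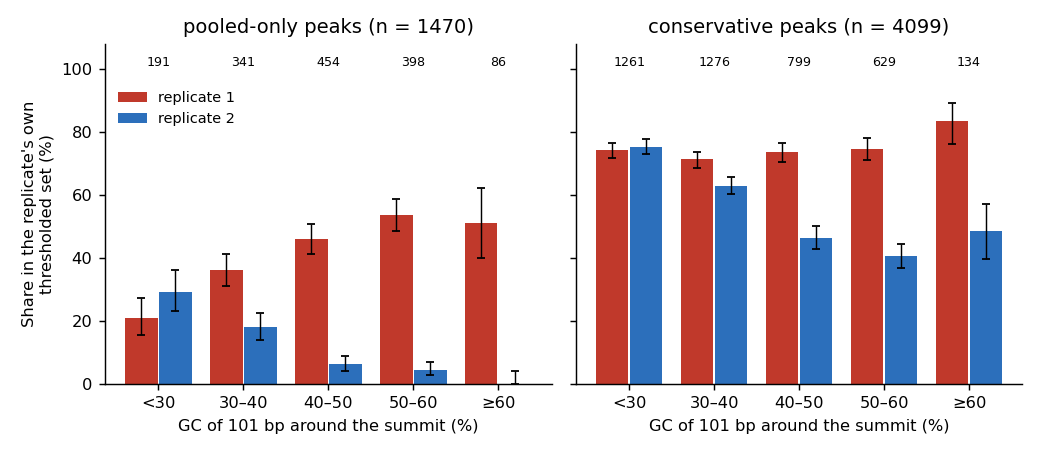
Share of peaks (%) held by each replicate's own thresholded set, by GC content within 50 bp either side of the summit, for pooled-only peaks (left) and conservative peaks (right), with exact 95% intervals and the number of peaks above each pair of bars. At pooled-only peaks replicate 1's share goes from 20.9% to 53.8% between the lowest bin and 50 to 60% GC, and replicate 2's from 29.3% to 4.52%.

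Several short motifs differed in frequency between the groups by replicate. GAGAGA, the core of the element bound by the GAGA factor, was present in 124 of 1470 windows of 50 bp either side of the summit (8.44%, exact interval 7.06 to 9.97) and in 7.42% of conservative windows, both above windows at every TSS (3.99%) and along the arms (3.55%). Its difference from conservative windows was 1.02 points (95% interval -0.543 to 2.73). It was in 13.6% of members of replicate 1 only and 1.34% of those of replicate 2 only. The CA repeat CACACA was in 13.2% against 9.51% of conservative windows (difference 3.68 points, 95% interval 1.80 to 5.70), 8.32% at every TSS and 8.07% along the arms. The E-box CAGCTG, bound by proneural factors, was in 5.51% against 3.73% (difference 1.78 points, 0.552 to 3.17), below the 7.83% at every TSS. Both were rarer in members of replicate 2 only (7.38% and 2.68%) than in those of replicate 1 only (15.3% and 6.49%), and both differences turned direction among all members in replicate 2's set, to -2.15 and -1.28 points. Against conservative peaks of like signal, the differences over all members were 2.24 points for CACACA, 1.71 for CAGCTG and 1.36 for GAGAGA.

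The AT-rich motifs TATAAA and TAATTA were rarer at members than at conservative peaks. The TATA box TATAAA was in 10.6% against 18.2% of conservative windows (difference -7.64 points, -9.54 to -5.60), with 15% at every TSS and 11.7% along the arms. The homeobox core TAATTA was in 5.03% against 8.20% (difference -3.16 points, -4.50 to -1.69), above the 3.38% at every TSS and below the 6.47% along the arms. Both were more frequent in members of replicate 2 only, at 18.8% and 12.8%, than in those of replicate 1 only, at 7.63% and 2.60%. Against conservative peaks of like signal, the differences over all members were -5.52 points for TATAAA and -4.11 for TAATTA. For the other 7 motifs, as for GAGAGA, the interval of the difference from conservative windows included 0. In members of replicate 1 only and of replicate 2 only, CAGGTG was in 3.25% and 3.36%, and ACAGTG in 6.33% and 10.7%. They were found in 3.27% (CAGGTG), 7.69% (ACAGTG), 0.884% (TATCGATA), 0.612% (TGACTCA), 1.36% (CACGTG), 5.17% (GATAAG) and 2.93% (AACNGTT) of member windows, and in 3.57%, 5.51%, 3.76%, 0.806%, 1.80%, 5.29% and 4.02% of windows at every TSS. All were sought on both strands, some can overlap each other, and a match is a run of letters and not a binding site.

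A pooled-only summit lay within 500 bp of a TSS of 665 of the 13968 protein-coding genes (4.76%), and a conservative summit did so for 1925 (13.8%). Of the 665 genes, 84 also have a conservative promoter peak, at the same or another TSS, and 581 (4.16% of all) do not. The member was in the set of replicate 1 only at 325 genes (48.9%), of replicate 2 only at 59 (8.87%), of both at 4 and of neither at 277 (41.7%). The 24 gene lists were chosen with earlier results of these data known, and are described by their counts beside these shares, with no test.

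Genes of the Dpp pathway, the fly BMP signalling pathway that patterns the embryo, had a pooled-only promoter peak in 6 of 20 (30%, exact interval 11.9 to 54.3), beside 4.76% of all genes, and a conservative one in 2 of 20. The 6 had no conservative promoter peak. They include the ligand dpp (signal 48.7, with 33.6 in replicate 1 and 22.7 in replicate 2), its antagonist sog (96.3, with 71.9 and 25.2), the glypican dally (99.9, with 70.4 and 28.2) and both types of receptor. The type I receptor tkv had 88.2 (70.3 and 23.9), and the type II receptor put had 63.6 (48.8, not listed in replicate 2). The nuclear cofactor is shn, described above. In each of the 6, replicate 1 was the higher or the only one listed, and 5 were in the set of replicate 1 only. Replicate 1 was also the higher at 934 (71.2%) of all members listed in both replicates. Of all 665 genes with a pooled-only promoter peak, 48.9% were in the set of replicate 1 only.

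Genes of the ecdysone response and the circadian clock also had one in 6 of 20 (30%), 3 of them beside a conservative peak. At the ecdysone receptor gene EcR the signal was 67.1 pooled (35.6 in replicate 1 and 33.3 in replicate 2), close to balance. Its partner usp had 64.7 (49.6 and 19.6) and a conservative peak of 82.5. The nuclear receptor genes Hr4 (94.5, with 69.0 and 23.1) and Eip75B (63.1, with 51.7 and 12.1), the clock gene tim (88.4, with 61.6 and 19.8) and Pdp1 (74.8, with 51 and 21.3) were higher in replicate 1. Hox genes had one in 3 of 8 (37.5%, 8.52 to 75.5), all in the set of replicate 1 only, beside 48.9% of all genes with such a peak. The 3 were abd-A (105.1, with 74.6 and 25.7), Scr (80.8, with 53.7 and 25.9) beside a conservative peak of 165.5, and pb (72.9, with 52.2 and 18.8). With conservative peaks added, 6 of the 8 Hox genes had a promoter peak of one kind or the other.

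Genes of neural precursors and neuronal identity had pooled-only promoter peaks at 17.2% (5 of 29) and 14.3% (5 of 35). Among precursors these were pros (87.9, with 63.7 in replicate 1 and 28.0 in replicate 2), which ends neural stem cell division and is on both lists, the fusion's own gene seq, insc (81.4, with 51.7 and 17.9) of spindle orientation, the Snail family gene wor (77.4, with 38.2 and 28.9) and brat (70, with 49.2 and 22.9). Among identity factors they were the Pax6 gene ey (105.2, with 81.6 and 26.5), the LIM homeobox gene Lim3 (96.1, with 77.0 and 17.2), pros, chinmo (71.9, with 57.5 and 17.4) and the Iroquois gene ara (61.3, with 38.6 and 14.0). All 5 of the latter were in the set of replicate 1 only, beside 48.9% of all genes with such a peak. Lim3 has a conservative peak too (98.3).

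Axon and dendrite guidance is the process Sequoia is best known for, and 3 of the 35 genes on that list had one (8.57%, 1.80 to 23.1), beside 12 with a conservative peak. Dscam1, a cell surface protein of neurite self-recognition, had a signal of 122.6 and was in both replicates' sets (77.9 and 39.6). The receptor gene drl had 82.1 (51.9 and 28.3), and comm, which controls midline crossing, had 71.3 (52.2 and 27.3) and was in neither set. None of the 3 has a conservative promoter peak. The Notch list had 3 of 23 (13.0%), with mib1, the ubiquitin ligase of the ligand Delta, at 100.6 (82.0 and 10.5), the repressor gene E(spl)mbeta-HLH at 94.8 (85.7 and 20.6) and the coactivator gene mam at 70.1 (51.2 and 23.1) beside a conservative peak of 148.0. The list of endoderm, gut and fat body held 4 such genes among 21 (19%), the GATA factor genes pnr (122.6, with 90.5 and 26.8) and grn (86.5, with 51.6 and 25.1), tll (101.3, with 78.8 and 24.3) and dve (72.0, with 58.4 and 21.4).

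Among genes of protein synthesis, cytoplasmic ribosomal protein genes had a pooled-only promoter peak in 9 of 88 (10.2%, 4.78 to 18.5) and a conservative one in 44. The strongest such summit of each gene lay at the TSS or just inside the gene, from 29 bp upstream at RpL23 to 183 bp downstream at RpL36A. RpL3 (122.7, with 102.8 in replicate 1 and 24.3 in replicate 2) shares its peak with CG6693 and a snoRNA gene. RpS18 (110.5) had 87.1 in replicate 1 and no peak listed in replicate 2, RpL36A (101.8) had 64.6 and 26.7, and RpS2 (79.9) had 68.9 and 24.4. A weaker member at RpL36A, 15 bp from the TSS with a signal of 21.2, overlaps the stronger one. Translation initiation factor genes had 3 of 44 (6.82%), the cap-binding protein gene eIF4E1 (101.5, with 78.4 and 22.9), eIF3f1 (93.3, with 67.2 and 17.2) and eIF2gamma (65.7, with 37.7 and 28.8). Mitochondrial ribosomal protein genes had 4 of 73 (5.48%), near the share of all genes, led by mRpL30 (118.1, with 103.7 and none listed), whose peak lay 368 bp from its TSS and 89 bp from that of HLH4C. The others were mRpL27 (71.3), mRpS11 (70.2) and mRpL54 (62.7), in the set of neither replicate, each sharing its peak with a second gene. Among other listed genes, RpS18 shares its promoter peak with plu, put with His4r, usp with Actn, insc with sktl and E2f2 with Mpp6.

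In other lists the share was near or below that of all genes, or rested on 1 or 2 genes. Segmentation genes, of which 23 of 30 have a conservative peak, added only the Hedgehog receptor gene ptc (118.3, with 83.9 in replicate 1 and 24.0 in replicate 2) and tll. Glial genes had gcm, the switch gene of glial fate (76.2, with 65.8 and none listed), and Nrg (75.8, with 45.9 and 29.1), of 20. Pan-neuronal genes had the synaptotagmin gene Syt1 (65.0, with 33.9 and 33.7) and the potassium channel gene Shal (53.0, with 35.8 and 22.7), of 28. The tracheal list had mmy (79.8) and Nrg of 29, the Polycomb and Trithorax list Su(z)2 and Asx (45.1) of 27, the insulator list BEAF-32 (89.6, with 27.7 and 57.5) and CTCF (61.2) of 17, and the cell cycle list E2f2 (77.8) and geminin (71.5) of 30. There was 1 gene in each of the heat shock list (Hsp68, 64.6, of 23), the adult eye list (Galphaq, 69.3, of 25) and the EGF receptor list (csw, 78.7, of 24). Mesoderm and muscle genes had none of 34 (3 counts would be 8.82%, exact 95% upper limit 10.3%) although 15 have a conservative peak, adult gonad genes none of 36 (8.33% and 9.74%) and proteasome genes none of 48 (6.25% and 7.4%). Over the 65 genes of any list with such a peak, 39 were in the set of replicate 1 only and 1, BEAF-32, in that of replicate 2 only.

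**Figure D5:**
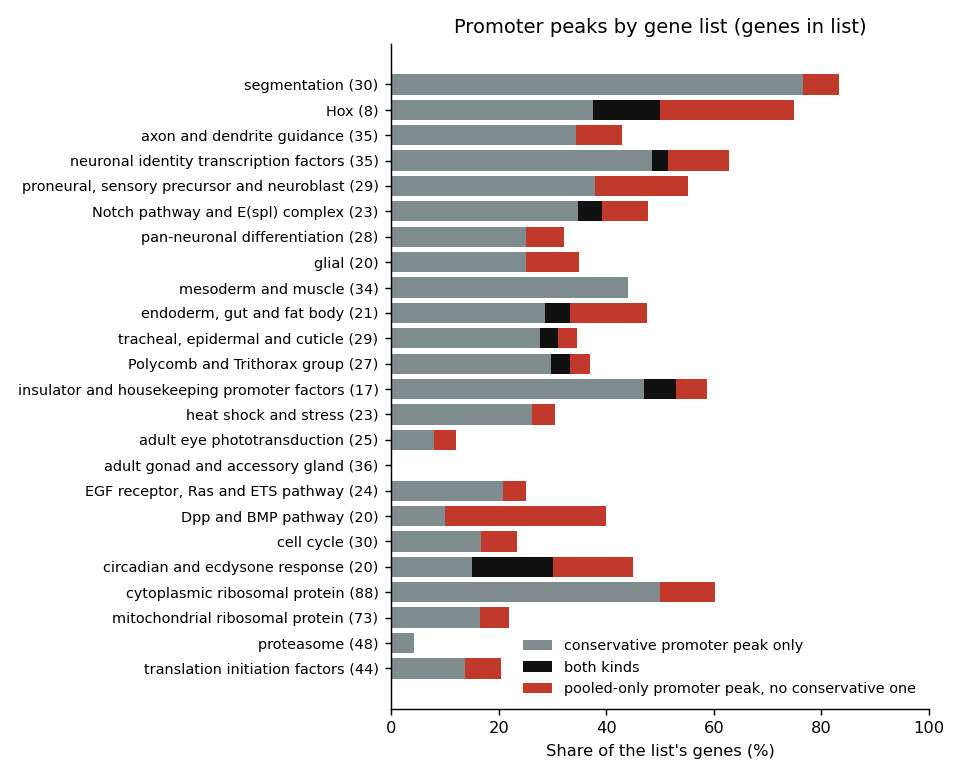
Share of each list's genes (%) with a conservative promoter peak only (grey), with both kinds (black) and with a pooled-only peak and no conservative one (red), and in brackets the number of genes in the list. The red part is widest for the Dpp pathway list, where it holds 6 of 20 genes, and absent for the mesoderm, gonad and proteasome lists.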

How the data were processed

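The deposited data are peak lists on dm6 from 2 ChIP-seq libraries, per the labels and the text files deposited with them. Their signal values come from the authors' peak caller, run with 1 control alignment. The authors give each thresholded peak an integer score that rises as IDR falls, never under 830, and each ranked peak a global IDR as -log10, capped at 5. Summits are the deposited offset in bp. Peak caller, aligner and the pair of lists behind each IDR are not given in the sources used here. Neither the control library nor 8 further columns per ranked list were analysed here, and read depth is unknown. Exact intervals on shares cover only the error of counting.

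Each summit got 1 class from Ensembl release 115 (BDGP6.54), promoters first, followed by 5' untranslated regions, then coding exons, then 3' untranslated regions, other exons, introns and last intergenic sequence. Transposable elements were left out. MicroRNA and lncRNA genes were taken by transcript biotype or symbol. Overlap needed 1 bp. Shares were compared by two-sided Fisher's exact tests, tested on simulated data first. Intervals of differences between shares follow Newcombe's method. Tests used scipy 1.17.1 under Python 3.11.15, with pandas 2.3.3 and numpy 2.4.6, and plots matplotlib 3.10.9.

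The members and lists were chosen with earlier results of these data known. Named are seq, the 20 strongest members, the 20 protein-coding genes with the strongest member at their promoter, the strongest 4 of each list, the 6 strongest members over 2000 bp from any TSS and 3 at each end of the conservative IDR. Members outside promoters are named by the gene they lie in, where there is one, and others by the nearest TSS. Other list members, the strongest of each class or replicate group and the genes with most summits were chosen after their values were seen, as were the settings with a signal of at least 60 and without peaks that overlap another of their set. Of the listed symbols, fas and calypso matched no gene, and older symbols were matched by hand. Some genes are on several lists.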

Additional observations from a re-analysis of the deposited data

How the results depend on the processing

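Many values moved when only members in one replicate's own set were kept. Over these 2 settings the number of members lay between 163 and 630 and the number of protein-coding genes between 63 and 333. Odds ratios lay between 0.503 and 1.42 for promoters, 0.743 and 1.52 for introns, 0.777 and 1.55 for summits over 2000 bp from a TSS, 1.49 and 1.93 for coding exons and 0.600 and 0.671 for the X, so that promoters, introns and distal summits turned direction. Motif differences from conservative windows, in percentage points, lay between -6.19 and 5.92 for GAGAGA, -10.6 and -0.457 for TATAAA, -5.34 and 4.69 for TAATTA and -0.586 and 1.00 for TATCGATA, and reached -1.28 and 2.62 for CAGCTG, -0.896 and 3.18 for ACAGTG, -2.15 and 5.56 for CACACA, -0.341 and 0.251 for TGACTCA, -1.10 and 0.172 for CACGTG and -2.30 and 0.823 for GATAAG. The cause was not tested. At the stricter pooled IDR limit of 0.005 there were 716 members and 365 genes, odds ratios of 1.35 for coding exons and 0.773 for the X, both no longer past the threshold, and a difference of 3.34 points for GAGAGA. Against conservative peaks of like signal the odds ratio was 1.39 for promoters, which reversed, 1.67 for coding exons (no longer past the threshold) and 0.630 for intergenic sequence (past it), and the differences were -1.11 points for ACAGTG, -5.52 for TATAAA and -0.855 for TGACTCA. The distal share passed the threshold at 1.22 when conservative peaks within 500 bp also removed a member, at 1.17 against conservative ranked peaks past the same IDR and at 1.18 with a signal of at least 60. With a TSS window of 200 bp the odds ratios of 2.07 for 5' untranslated regions, 0.856 for introns and 0.782 for intergenic sequence passed it. Replicate 1's set held 39.5% of members with summits within 100 bp, and the ranked lists held 98.8% and 94.0%. With 100 bp either side of the summit the motif difference was -4.71 points for ACAGTG, and with 25 bp it was 1.53 for CACACA and -4.34 for TATAAA. Of 267 values under alternatives, 217 stayed on their side of the threshold or within the interval of the main value. No paired analysis was possible because there is 1 group only. Read depth is unknown, so whether members of one replicate were missed in the other for want of reads could not be tested.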

Other observations

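Most gene bodies with a pooled-only summit held a single one. Such summits lay in 800 gene bodies, with 1 summit in 606 of them, 2 in 143 and 3 in 33. The most were in Glut4EF on 3R, with 9 pooled-only and 5 conservative summits over 120.7 kb, in CG46467 (8 and 5 over 114.2 kb) and in mam, the Notch coactivator gene (7 and 5 over 69.2 kb). RapGAP1 and the Wingless receptor gene fz2 had 5 each, beside 4 and 5 conservative ones. The small gene Rab32 held 4 pooled-only summits in 8.48 kb and CG42663 held 4 in 46.4 kb, and neither held a conservative one. The longer a gene, the more summits it can hold, and these genes were picked after their values were seen. Of all members, 274 (18.6%) lay within 1000 bp of another pooled-only summit and 158 (10.7%) within 1000 bp of a conservative one. Among conservative summits, 989 (24.1%) had another conservative summit that close. The rule left out members that overlap a conservative peak, and no such limit applied among conservative peaks, so these shares cannot be compared directly.

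Noncoding RNA genes were set beside protein-coding genes, of which 4.76% had a pooled-only and 13.8% a conservative promoter peak. The exact interval of the tRNA share below, 1.91 to 6.69, includes that 4.76%. A pooled-only summit lay within 500 bp of the TSS of 11 of 290 tRNA genes (3.79%), led by tRNA:His-GTG-1-3, and of 6 of 269 snoRNA genes (2.23%). It did so for 14 of 741 miRNA entries (1.89%), 42 of 1945 lncRNA genes (2.16%) and 1 of 32 snRNA genes. The miRNA entries include ones named by a transcript identifier beside genes such as mir-124. Their counts are thus of annotation entries, and not of separate miRNA genes. Conservative summits lay that close to 8 tRNA genes (2.76%), 12 snoRNA genes (4.46%), 17 miRNA entries (2.29%), 122 lncRNA genes (6.27%) and 4 snRNA genes. The tRNA genes were the one of these 5 classes with more pooled-only than conservative promoter peaks, by 11 genes against 8. The 11 include copies such as tRNA:Arg-CCT-1-2 and tRNA:Arg-CCT-1-3. Some of these promoters are shared with protein-coding genes, as at CG8490 beside tRNA:His-GTG-1-3, and cannot be told apart from them.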
